A study of Homo sapiens with 6 samples.

Results

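S phase and mitosis genes were 49 genes chosen by name, 23 that act in DNA replication and its control and 26 that act in mitosis, out of 61541 genes listed in each count file. All 49 were found by gene identifier. The 23 are called S phase members and the 26 mitotic members below. They were measured in RCC4, an established cell line derived from a clear cell renal carcinoma of a patient. One group held 3 cultures left untreated. The other held 3 cultures given 2 inflammatory cytokines for 24 h, 1000 U/mL of interferon gamma (IFNγ, IFNg in the labels) and 25 ng/mL of tumour necrosis factor (TNF). Both groups were grown in the same complete DMEM, and each biological replicate was made from 3 T75 flasks. A single line was studied, and the labels name no vehicle for the untreated cells, although alignment names in the headers of their count files carry the word dmso. Poly(A) RNA was read by direct RNA nanopore sequencing, in which the RNA strand itself passes through the pore, so that a read stands for an RNA molecule. Levels are given as CPM, read counts scaled to a common library size, with sizes normalised with the trimmed mean of M values (TMM).

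A cell copies its DNA in S phase and divides the copies in mitosis. Before S phase, CDC6 and CDT1 load the ring of MCM2 to MCM7 onto replication origins. CDC45 and the GINS complex then turn that ring into the active helicase, and PCNA, a sliding clamp, holds the polymerases on the template. Mitosis is driven by CDK1 with its A and B cyclins, started by the CDC25 phosphatases that remove inhibitory phosphates from CDK1, and ended by CDC20, which directs the anaphase-promoting complex to securin and cyclin B. Genes of the S phase set are known targets of E2F factors, and many mitotic genes carry a cell cycle homology region (CHR) near CCAAT boxes. IFNγ is known to slow the division of many epithelial and tumour lines, and MKI67 and TOP2A are widely used as markers of dividing cells.

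The 2 classes can be seen in their promoter sequences, and 4 members, MCM7, PCNA, CDC20 and CDC25B, are shown as examples. Each is the 250 bases before a RefSeq transcription start on GRCh38.p14, written 5′ to 3′ on the strand of the gene. Capitals mark E2F motifs (TTTCCCGC, TTTCGCGC, TTTGCCGC or TTTGGCGC), CCAAT boxes (CCAAT) and CHR motifs (TTTGAA or TTCGAA), each searched on both strands. The stretches are chr7:100101398-100101647, minus strand for MCM7, chr20:5126623-5126872, minus strand for PCNA, chr1:43358731-43358980, plus strand for CDC20 and chr20:3796060-3796309, plus strand for CDC25B.
MCM7: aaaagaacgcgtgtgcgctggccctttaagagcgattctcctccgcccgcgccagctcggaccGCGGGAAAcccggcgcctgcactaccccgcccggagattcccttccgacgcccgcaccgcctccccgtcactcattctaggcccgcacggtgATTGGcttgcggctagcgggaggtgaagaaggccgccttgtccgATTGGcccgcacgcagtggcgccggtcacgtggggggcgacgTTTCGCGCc
PCNA: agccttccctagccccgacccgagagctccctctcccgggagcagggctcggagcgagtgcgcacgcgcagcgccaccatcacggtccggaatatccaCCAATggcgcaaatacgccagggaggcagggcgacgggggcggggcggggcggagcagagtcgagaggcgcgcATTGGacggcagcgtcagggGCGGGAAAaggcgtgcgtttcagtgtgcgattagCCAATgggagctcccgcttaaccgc
CDC20: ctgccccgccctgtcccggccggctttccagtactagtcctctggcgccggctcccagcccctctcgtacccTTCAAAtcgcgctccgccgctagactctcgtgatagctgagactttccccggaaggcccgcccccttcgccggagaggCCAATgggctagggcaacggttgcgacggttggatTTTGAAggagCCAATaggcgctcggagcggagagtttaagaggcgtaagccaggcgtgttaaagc
CDC25B: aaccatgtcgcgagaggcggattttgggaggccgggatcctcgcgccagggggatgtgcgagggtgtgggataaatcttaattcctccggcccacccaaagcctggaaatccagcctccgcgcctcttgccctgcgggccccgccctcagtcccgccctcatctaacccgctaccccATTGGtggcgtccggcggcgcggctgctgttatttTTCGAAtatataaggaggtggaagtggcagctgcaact
MCM7 had 2 E2F motifs and 2 CCAAT boxes in this stretch, and PCNA had 1 E2F motif and 3 CCAAT boxes. CDC20 had 2 CHR motifs and 2 CCAAT boxes, and CDC25B had 1 of each. RefSeq lists 3 windows for MCM7, 2 for PCNA and 4 for CDC25B, and the one with the most motifs is shown. In windows of 300 bases, from 250 before to 50 after a start, 13 of the 20 S phase members with a window held an E2F motif (65.0%), against 3 of 22 mitotic members (13.6%) and 3.99% of 27305 genes in the RefSeq table. A CHR motif was found in 16 of the 22 mitotic members (72.7%), in 2 of the 20 S phase members (10.0%) and in 19.5% of all genes. A CCAAT box was found in 21 of the 22 (95.5%) and 12 of the 20 (60.0%), against 39.7% of all genes. Motif matches describe the letters in these windows. MCM4, MCM5, CCNE2, AURKA, BIRC5, TPX2 and UBE2C had no entry.

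Library totals ran from 3626000 to 4406296 counts, and a level of 3 counts equalled 0.677 to 0.866 CPM. The exposure could be checked on IRF1, whose log2 fold change was 5.29, and ICAM1 (5.43). Every renal carcinoma marker of a list of 9 (among them PAX8, CA9 and KRT8) was detected, all 4 endothelial markers had 0 counts, and 5 of 7 leukocyte markers had 0 counts, while the other two had at most 2 counts each over all libraries. Among 5 fibroblast markers DCN, LUM and COL1A2 had 0 counts, while PDGFRB and COL1A1 were detected, with a summed level of 54.8 to 74.5 CPM in untreated and 27.4 to 49.1 CPM in treated libraries. Untreated replicate 3 stood apart from untreated replicates 1 and 2 in most members, so the calls, medians and summed levels of both member lists are given with and without it.

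The summed levels of replication genes and of mitosis genes overlapped between treated and untreated RCC4 cells, and 1 member, the mitotic phosphatase gene CDC25B, was higher after IFNγ and TNF. Of the 49 members, 46 passed the filter on low counts, 22 S phase and 24 mitotic. A member was called where edgeR's quasi-likelihood test over 10067 genes gave it an adjusted p below 0.05. This held for 0 of 22 S phase members and 1 of 24 mitotic members, beside 8.14% of all genes tested (5.58% higher and 2.55% lower). The unadjusted p was below 0.05 for 0 S phase and 2 mitotic members, beside 19.8% of all genes, and DESeq2 and limma voom each called 0 and 1. Over all genes, the other fits that kept all 6 libraries called 795 to 1845. Without untreated replicate 3 the counts of members were also 0 and 1. Over all genes, fits that left out 1 library called 455 to 1178. The SE of the log2 fold change ran from 0.18 to 0.73 over the tested members, and a member that was not called is not shown to be unchanged. The p-values measure the spread between these 6 cultures of 1 line.

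The median log2 fold change was 0.17 over the 22 S phase members and 0.15 over the 24 mitotic members, beside -0.03 over all genes tested. Positive values were found for 15 of 22 and 16 of 24 members, respectively, whereas 47.3% of all genes tested had one. Without untreated replicate 3 the medians were -0.01 for both lists, beside 0.03 over all genes, and 22 of the 46 members had a positive value. Groups did not overlap, with treated libraries higher, for RRM2 among S phase members and for CDC25B and MKI67 among mitotic members, 3 of 46, and 13.9% of all genes tested did so. No tested member had all treated libraries below all untreated ones, which 12.0% of all genes had. Whether the S phase and mitotic lists differ from each other was not tested.

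Summed over all 23 S phase members, the level was 3043, 2715 and 1483 CPM in untreated replicates 1, 2 and 3 and 2988, 2862 and 2617 CPM in treated replicates 1, 2 and 3. The treated libraries lay close to untreated replicates 1 and 2, and untreated replicate 3 lay far below all 5 others. The sum was 1.17 times as high in treated as in untreated cells on means of 2822 ± 189 and 2414 ± 823 CPM (SD, n = 3 each), and 0.980 times as high without untreated replicate 3. Summed over the 26 mitotic members, the level was 4638, 4053 and 2149 CPM in untreated replicates 1, 2 and 3 and 4459, 4005 and 3441 CPM in treated replicates 1, 2 and 3. Untreated replicate 3 was again the lowest, and treated replicate 3 was the lowest of the treated libraries. The ratio was 1.10 on means of 3968 ± 510 and 3613 ± 1302 CPM (SD, n = 3 each), and 0.913 without untreated replicate 3. These sums compare libraries and hold short and long transcripts alike. In bulk RNA, fewer cells in a phase and less RNA per cell cannot be told apart. Relative to the untreated mean, the median member of treated replicates 1, 2 and 3 differed by 0.173, 0.196 and 0.051 on the log2(CPM + 1) scale in the S phase list and by 0.142, 0.301 and -0.125 in the mitotic list.

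**Figure D1:**
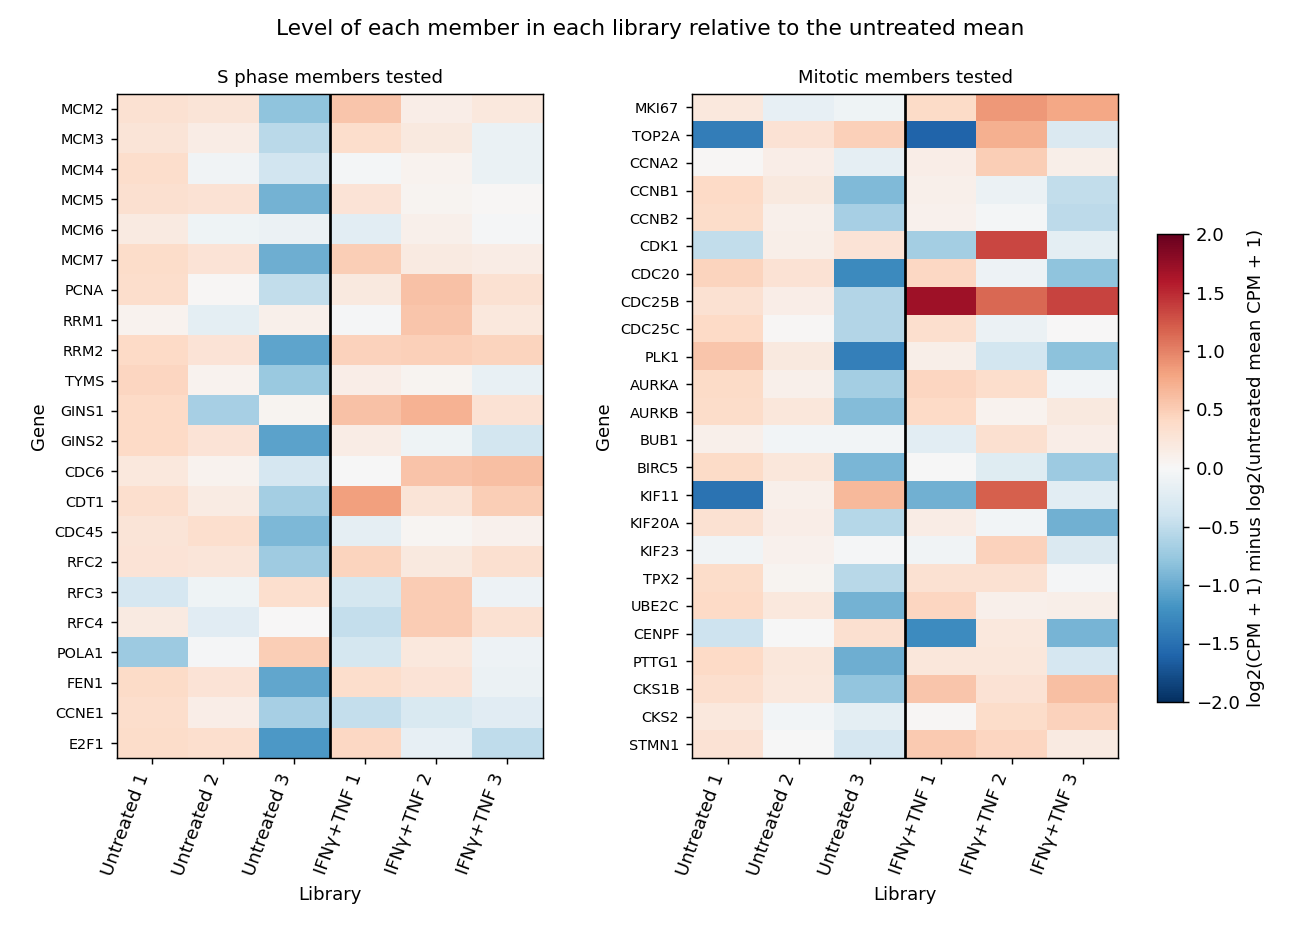
Level of each of the 46 tested members (rows) in each of the 6 libraries (columns), as log2(CPM + 1) minus the log2 of the untreated mean CPM + 1; red is above and blue below the untreated mean, and the black line divides untreated from treated libraries. The row of CDC25B is red in all 3 treated libraries, the column of untreated replicate 3 is mostly blue, and TOP2A and KIF11 are blue in replicate 1 of both groups.

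CDC25B encodes a phosphatase that activates CDK1 at the entry to mitosis (ENSG00000101224; chromosome 20, 3786772 to 3806121, GRCh38). Its level was 93.7, 83.8 and 50.6 CPM in untreated replicates 1, 2 and 3 and 247.5, 170.4 and 196 CPM in treated replicates 1, 2 and 3. The lowest treated library was well above the highest untreated one, and untreated replicate 3 was the lowest of all. The means were 76.0 ± 22.6 CPM untreated and 204.5 ± 39.3 CPM treated (SD, n = 3 each), a 2.69-fold difference (fitted log2 change 1.43 with SE 0.26, adjusted p 0.00916 by edgeR). CDC25B was called under all 15 alternatives run, with log2 fold changes from 1.20 to 1.63 and adjusted p from 8.26e-08 to 0.041. The smallest change, 1.20, was that without untreated replicate 3 (adjusted p 0.00298). The rise was therefore present against untreated replicates 1 and 2 alone. No exon of another gene overlaps CDC25B on its strand.

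CDC25C, the paralog that acts on CDK1 in the same step, was at 23.0, 17.6 and 11.2 CPM in untreated replicates 1, 2 and 3 and 21.9, 15.8 and 17.4 CPM in treated replicates 1, 2 and 3. Its groups overlapped (fitted log2 change 0.09 with SE 0.30, adjusted p 0.928 by edgeR). CDC25A, which acts earlier in the cycle, was not called (fitted log2 change 0.20 with SE 0.30, adjusted p 0.826 by edgeR). Whether the change of CDC25B differed from that of its paralogs was not tested.

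**Figure D2:**
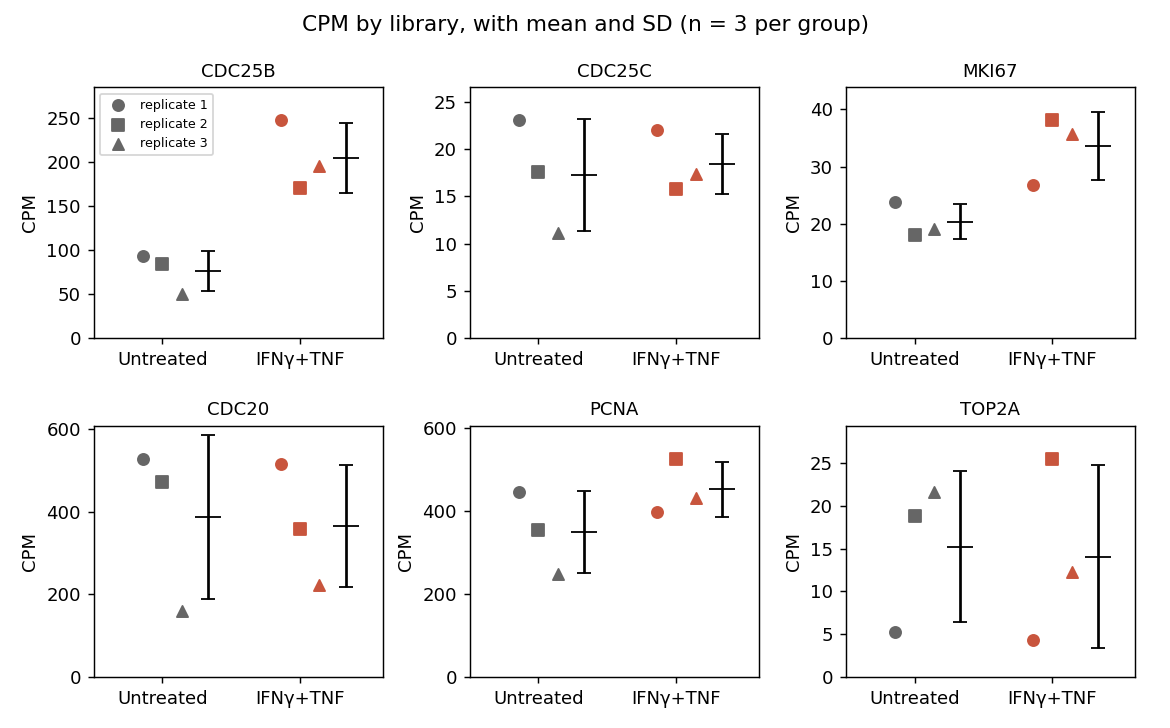
CPM (y axes, each from 0) of 6 members in untreated (grey) and IFNγ+TNF (red) libraries; the marker shape gives the replicate number, and the bar gives the mean and SD of 3 libraries. Treated libraries lie above all untreated ones for CDC25B and MKI67, groups overlap for CDC25C, CDC20, PCNA and TOP2A, and untreated replicate 3 is low for CDC20 but high for TOP2A.

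Among the 8 genes of origin licensing, 0 were called, beside 8.14% of all genes tested. A positive log2 fold change was found for 6 of the 8, beside 47.3% of all genes tested. CDT1, which loads the MCM ring together with CDC6, was at 127, 113 and 62.9 CPM in untreated replicates 1, 2 and 3 and 179.6, 121 and 143 CPM in treated replicates 1, 2 and 3. Treated replicate 1 was the highest, and treated replicate 2 lay below untreated replicate 1 (fitted log2 change 0.55 with SE 0.28, adjusted p 0.326 by edgeR). CDT1 was called in 1 of 15 alternatives, the fit with 1 surrogate variable (adjusted p 0.0151). CDC6 was at 26.4, 23.8 and 17.8 CPM in untreated replicates 1, 2 and 3 and 22.5, 34.3 and 35.1 CPM in treated replicates 1, 2 and 3. Treated replicates 2 and 3 were above every untreated library, while treated replicate 1 lay among them (fitted log2 change 0.44 with SE 0.26, adjusted p 0.421 by edgeR).

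The helicase ring was followed in all 6 subunits. MCM7 (ENSG00000166508; chromosome 7, 100092728 to 100101940) was at 388.5, 364 and 154 CPM in untreated replicates 1, 2 and 3 and 426, 342 and 334 CPM in treated replicates 1, 2 and 3. Untreated replicate 3 was at 0.409 times the mean of untreated replicates 1 and 2, and every treated library lay between these extremes or a little above (fitted log2 change 0.28 with SE 0.32, adjusted p 0.735 by edgeR). MCM2 had 173, 169 and 79.7 CPM untreated and 208, 154 and 164 CPM treated (log2 fold change 0.32). MCM5 had 242, 237 and 99.7 CPM untreated and 233, 201 and 195 CPM treated (log2 fold change 0.12). Untreated replicate 3 was the lowest library in both genes. MCM3, MCM4 and MCM6 had log2 fold changes of 0.15, -0.03 and -0.04. MCM6 varied least of the MCM genes in the untreated group, at 86.9, 72.1 and 69.9 CPM, and its untreated replicate 3 was at 0.879 times the mean of the others. Without untreated replicate 3 the log2 fold changes of MCM3, MCM5 and MCM7 turned negative, to -0.07, -0.20 and -0.04.

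Helicase activation is carried out by CDC45 and the GINS complex. GINS1, a GINS subunit, was at 16.8, 7.50 and 13.0 CPM in untreated replicates 1, 2 and 3 and 19.1, 20.8 and 15.4 CPM in treated replicates 1, 2 and 3. Untreated replicate 2 was the lowest here, and treated replicate 3 lay below untreated replicate 1 (fitted log2 change 0.57 with SE 0.32, adjusted p 0.383 by edgeR). The other GINS subunit on the list, GINS2, had 249.5, 230.1 and 90.0 CPM untreated and 211, 179 and 146 CPM treated (log2 fold change -0.09), and CDC45 had 41.6, 44.2 and 18.2 CPM untreated and 30.6, 35.7 and 36.8 CPM treated (-0.01). In untreated replicate 3, GINS2 and CDC45 were at 0.375 and 0.424 times the mean of the other untreated libraries.

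PCNA (ENSG00000132646; chromosome 20, 5114953 to 5126626) was at 445, 353 and 247.5 CPM in untreated replicates 1, 2 and 3 and 398.5, 526 and 431.5 CPM in treated replicates 1, 2 and 3. Treated replicate 2 was the highest, and treated replicate 1 lay below untreated replicate 1 (fitted log2 change 0.37 with SE 0.23, adjusted p 0.45 by edgeR). RFC2, RFC3 and RFC4 belong to the complex that loads PCNA on DNA. Their fitted log2 changes were 0.33, 0.07 and 0.18. Their SE ran from 0.26 to 0.34, and the groups overlapped in all 3 genes. FEN1, the nuclease that trims Okazaki fragments, had 66.2 ± 30.0 CPM untreated and 75.4 ± 12.7 CPM treated (SD, n = 3 each; log2 fold change 0.19). POLA1, the catalytic subunit of DNA polymerase alpha, was at 5.76, 10.1 and 14.8 CPM in untreated replicates 1, 2 and 3 and 7.80, 12.0 and 9.41 CPM in treated replicates 1, 2 and 3. Its order ran against most members, with untreated replicate 3 the highest of all and untreated replicate 1 the lowest (log2 fold change -0.07).

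The enzymes of nucleotide supply all had positive values without a call, where 47.3% of all genes tested had a positive value and 8.14% were called. RRM2, the regulated subunit of ribonucleotide reductase, was at 259.7, 238 and 94.5 CPM in untreated replicates 1, 2 and 3 and 272, 274 and 268 CPM in treated replicates 1, 2 and 3. The treated libraries were nearly equal and above all untreated ones, while untreated replicate 3 was at 0.380 times the mean of the other untreated libraries (fitted log2 change 0.46 with SE 0.33, adjusted p 0.532 by edgeR). Without untreated replicate 3 the log2 fold change of RRM2 was 0.12. Its partner subunit RRM1 had 61.0, 50.7 and 61.9 CPM untreated and 57.2, 85.5 and 67.0 CPM treated (log2 fold change 0.27), with no low value in untreated replicate 3. TYMS, which makes thymidylate, had 281, 217 and 124 CPM untreated and 227, 215.5 and 186 CPM treated (log2 fold change 0.02). Its sign depended on single libraries, with log2 fold changes from -0.26 to 0.32 when 1 library was left out. Those of RRM1 and RRM2 stayed positive, from 0.15 to 0.405 and from 0.12 to 0.73.

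Of the G1/S controllers, E2F1, the transcription factor that activates S phase genes, had 77.0, 74.98 and 26.4 CPM untreated and 79.7, 53.0 and 41.6 CPM treated. Treated replicates 2 and 3 lay below untreated replicates 1 and 2 (fitted log2 change -0.03 with SE 0.40, adjusted p 0.984 by edgeR). CCNE1, which encodes the cyclin partner of CDK2, had 29.9, 25.6 and 14.3 CPM untreated and 16.5, 18.7 and 19.7 CPM treated. All treated values were below untreated replicates 1 and 2 and above untreated replicate 3, and its fitted change was the lowest of the S phase list (fitted log2 change -0.34 with SE 0.29, adjusted p 0.623 by edgeR). CCNE2 did not pass the filter, with untreated counts of 1, 5 and 10 and treated counts of 3, 10 and 5.

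**Figure D3:**
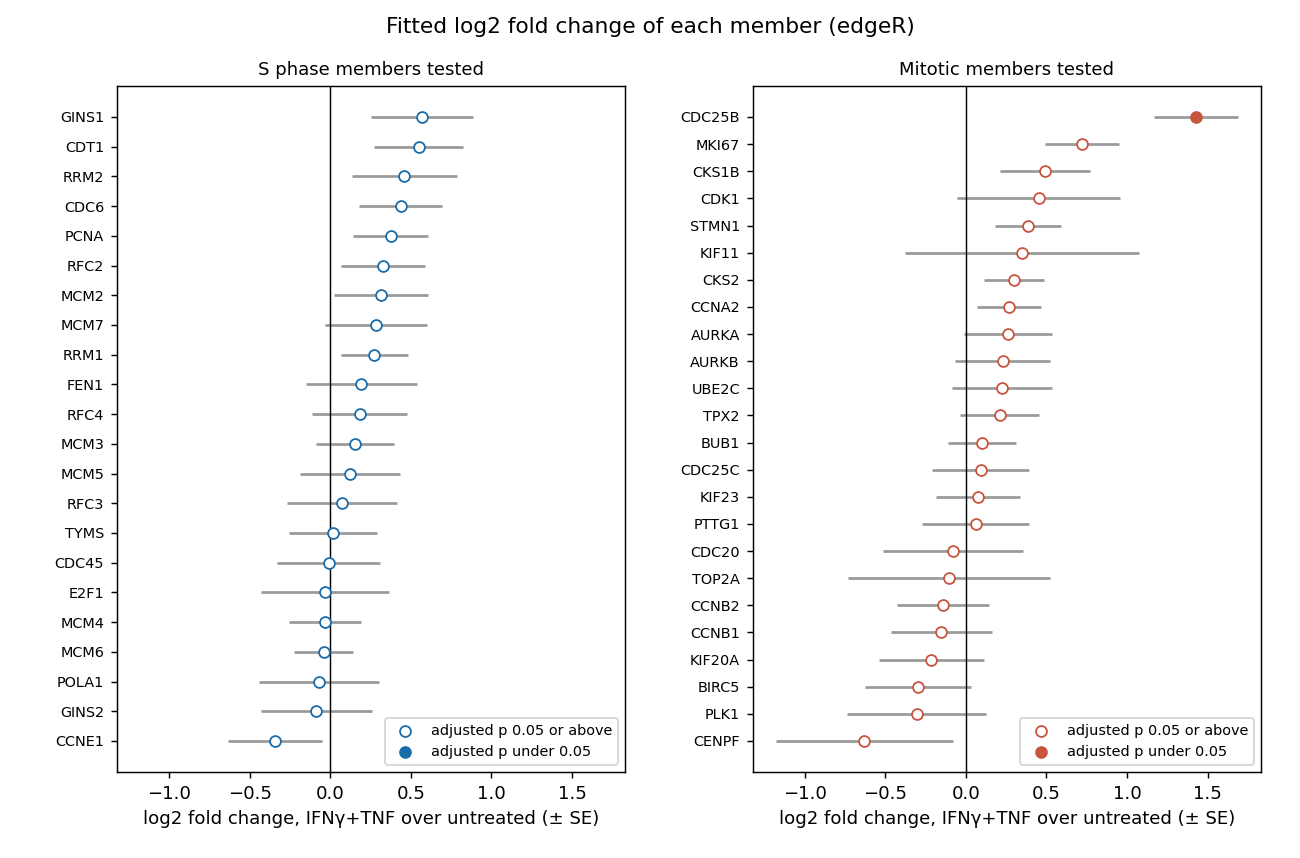
Fitted log2 fold change of treated over untreated cells (x axis) with its SE for each tested member (rows, sorted), S phase members on the left and mitotic members on the right; filled points have an adjusted p under 0.05. CDC25B at 1.43 is the filled point, and the other 45 points lie between -0.63 and 0.72.

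Among chromosome proteins, MKI67, which encodes the Ki-67 antigen that coats mitotic chromosomes, was at 23.8, 18.1 and 19.1 CPM in untreated replicates 1, 2 and 3 and 26.9, 38.1 and 35.6 CPM in treated replicates 1, 2 and 3. All treated libraries were above all untreated ones, the nearest pair being treated replicate 1 and untreated replicate 1 (fitted log2 change 0.72 with SE 0.23, adjusted p 0.102 by edgeR). The gene was called in 3 of 15 alternatives, with the replicate block (adjusted p 0.0394), with offsets for GC content and length (0.0315) and with 1 surrogate variable (0.0199), and its log2 fold change without untreated replicate 3 was 0.67. TOP2A, the topoisomerase that untangles sister chromatids, was at 5.24, 18.9 and 21.6 CPM in untreated replicates 1, 2 and 3 and 4.33, 25.5 and 12.3 CPM in treated replicates 1, 2 and 3. Replicate 1 was the lowest library of each group, far below the others in both (fitted log2 change -0.11 with SE 0.63, adjusted p 0.962 by edgeR). CENPF, a kinetochore protein gene, had untreated counts of 11, 16 and 24 and treated counts of 4, 22 and 6, or 2.88, 4.14 and 5.46 CPM untreated and 1.16, 4.96 and 1.71 CPM treated. Its lowest libraries were treated replicates 1 and 3, and treated replicate 2 lay within the untreated range (fitted log2 change -0.63 with SE 0.55, adjusted p 0.638 by edgeR).

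CDK1, the kinase that drives entry to mitosis, was at 11.0, 17.3 and 19.4 CPM in untreated replicates 1, 2 and 3 and 9.53, 41.5 and 13.7 CPM in treated replicates 1, 2 and 3. Treated replicate 2 held the highest value, treated replicate 1 the lowest, and treated replicate 3 lay within the untreated range (fitted log2 change 0.45 with SE 0.51, adjusted p 0.735 by edgeR). Without treated replicate 2 the log2 fold change of CDK1 was -0.40. CCNB1, a B cyclin gene, was at 496, 431.5 and 203 CPM in untreated replicates 1, 2 and 3 and 403.5, 348 and 267 CPM in treated replicates 1, 2 and 3. The other B cyclin gene, CCNB2, had 109, 91.0 and 53.1 CPM untreated and 89.5, 82.2 and 58.2 CPM treated. In both the highest library was untreated replicate 1 and the lowest untreated replicate 3 (log2 fold changes -0.15 and -0.14). CCNA2, the A cyclin gene, had 45.6 ± 5.11 CPM untreated and 54.9 ± 8.57 CPM treated (SD, n = 3 each; log2 fold change 0.27).

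CKS1B and CKS2 encode small proteins that bind CDK complexes. CKS1B was at 335, 308 and 153 CPM in untreated replicates 1, 2 and 3 and 388, 325 and 404 CPM in treated replicates 1, 2 and 3. Treated replicates 1 and 3 exceeded every untreated library, and untreated replicate 3 was the lowest (fitted log2 change 0.49 with SE 0.28, adjusted p 0.4 by edgeR). It was called in 1 of 15 alternatives, with 1 surrogate variable (adjusted p 0.0398). CKS2 was at 392, 328 and 296 CPM in untreated replicates 1, 2 and 3 and 343, 438 and 469 CPM in treated replicates 1, 2 and 3. Treated replicates 2 and 3 were the highest, and treated replicate 1 lay within the untreated range (fitted log2 change 0.30 with SE 0.19, adjusted p 0.463 by edgeR). By mean CPM over all libraries, PCNA, CKS2 and UBE2C had the highest levels of the 49 members, at 400, 378 and 377 CPM.

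Genes of anaphase and mitotic exit gave 0 calls among 3 tested, beside 8.14% of all genes tested. CDC20 (ENSG00000117399; chromosome 1, 43358981 to 43363203) was at 529, 473 and 159.6 CPM in untreated replicates 1, 2 and 3 and 516, 359.5 and 222 CPM in treated replicates 1, 2 and 3. Replicate 3 was the lowest library of each group, and untreated replicate 3 was at 0.319 times the mean of the other untreated libraries (fitted log2 change -0.08 with SE 0.43, adjusted p 0.958 by edgeR). UBE2C, the ubiquitin-conjugating enzyme that works with the anaphase-promoting complex, was at 460.3, 402 and 181 CPM in untreated replicates 1, 2 and 3 and 469, 372 and 378 CPM in treated replicates 1, 2 and 3. Apart from untreated replicate 3 all libraries lay between 372 and 469 CPM (fitted log2 change 0.23 with SE 0.31, adjusted p 0.797 by edgeR). PTTG1, which encodes securin, had 389, 345 and 149 CPM untreated and 344, 343 and 233 CPM treated (log2 fold change 0.06). PTTG1 has intronless copies of near-identical sequence, so its counts are uncertain where reads could be placed on a copy.

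The mitotic kinases and the checkpoint genes included 5 tested members and 0 calls, beside 8.14% of all genes tested. PLK1, a kinase of spindle assembly and mitotic entry, had 315.5, 246 and 82.9 CPM untreated and 234, 166 and 121.5 CPM treated. Untreated replicate 3 was at 0.295 times the mean of untreated replicates 1 and 2, the lowest such ratio of the 46 tested members (fitted log2 change -0.31 with SE 0.43, adjusted p 0.804 by edgeR). BIRC5, which encodes survivin of the chromosomal passenger complex, had 493, 439.5 and 199.7 CPM untreated and 375, 320.5 and 228 CPM treated (log2 fold change -0.29). All treated values of BIRC5 were below untreated replicates 1 and 2. AURKA and AURKB, the Aurora kinase genes, had log2 fold changes of 0.26 and 0.23, and 0.00 and -0.07 without untreated replicate 3. BUB1, a spindle checkpoint kinase gene, had 31.0 ± 2.15 CPM untreated and 33.2 ± 6.19 CPM treated (SD, n = 3 each; log2 fold change 0.10). BUB1B, which encodes the checkpoint protein BUBR1, did not pass the filter, with untreated counts of 3, 2 and 2 and treated counts of 3, 4 and 6, and exons of 2 other genes cover 18.8% of its last 500 exonic bases on the same strand.

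Spindle motor and microtubule genes included 5 tested members and 0 calls, beside 8.14% of all genes tested. KIF11, the motor that separates spindle poles, had untreated counts of 5, 23 and 40 and treated counts of 8, 61 and 16. Replicate 1 was the lowest library of each group and treated replicate 2 the highest of all (fitted log2 change 0.35 with SE 0.73, adjusted p 0.882 by edgeR). KIF20A and KIF23, motors of cytokinesis, had log2 fold changes of -0.21 and 0.08. TPX2, which activates Aurora A on the spindle, had 213, 171 and 112 CPM untreated and 204.5, 205 and 163 CPM treated (log2 fold change 0.21). STMN1, the microtubule-destabilising protein stathmin, had 187.5, 153 and 122 CPM untreated and 223, 207 and 174 CPM treated. Treated replicates 1 and 2 were above every untreated library, and treated replicate 3 was not (fitted log2 change 0.39 with SE 0.20, adjusted p 0.356 by edgeR). NUSAP1, a spindle microtubule protein gene, had untreated counts of 0, 1 and 0 and treated counts of 0, 0 and 0. Exons of another gene cover 89.2% of its last 500 exonic bases on the same strand, and the recorded counting command left out reads that overlap exons of more than 1 gene, so these counts say nothing of its level.

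Many of the differences lay within the untreated group. Untreated replicate 3 was the lowest of the 3 untreated libraries in 34 of the 46 tested members, 17 in each list, where 41.1% of all genes tested had it lowest. It was below 0.5 times the mean of untreated replicates 1 and 2 in 17 of 46, against 4.27% of all genes. The median ratio was 0.521 over S phase members and 0.573 over mitotic members, beside 1.03 over all genes tested. In KIF11, POLA1, TOP2A, CENPF, RFC3 and CDK1, by contrast, untreated replicate 3 was 1.37 to 2.51 times the mean of the others. This pattern was noticed in the data and was not tested.

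The GC content, level and length of the transcript moved with it. The log2 ratio of untreated replicate 3 to the mean of untreated replicates 1 and 2 correlated with GC content at r = -0.747 over the 46 members and at r = -0.533 over 10022 genes, as descriptions across genes that share the same libraries. The same ratio also moved with the mean level in CPM (r = -0.77 over the members and -0.295 over all genes) and with transcript length (0.424 and 0.282). For treated replicate 1 against treated replicates 2 and 3 the correlation had the opposite sign, at r = 0.714 over the members and 0.618 over all genes. Count-weighted GC content was 51.8% in untreated replicate 3 and 53.0% in both other untreated libraries, and it was 53.4%, 52.3% and 52.7% in treated replicates 1, 2 and 3. A GC content of at least 55% was found in 9 members, among them CDC25B, MCM7, CDT1, CDC20 and PLK1. In these 9 the median log2 ratio for untreated replicate 3 was -1.25, against -0.34 over 3144 genes of that class. In the 22 members from 45% to under 55% it was -0.91, against -0.03 over 3525 genes. In the 15 members under 45%, among them CDK1, KIF11 and TOP2A, it was 0.09, against 0.58 over 3353 genes. The members thus lay below the median of all genes in each class, and the part of GC content, level and length in this was not tested. With per-library offsets for GC content and length, the median log2 fold changes of the S phase and mitotic members were 0.17 and 0.15. In that fit 0 and 2 members were called, and the alternative fits that kept all 6 libraries called 795 to 1845 genes in all.

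**Figure D4:**
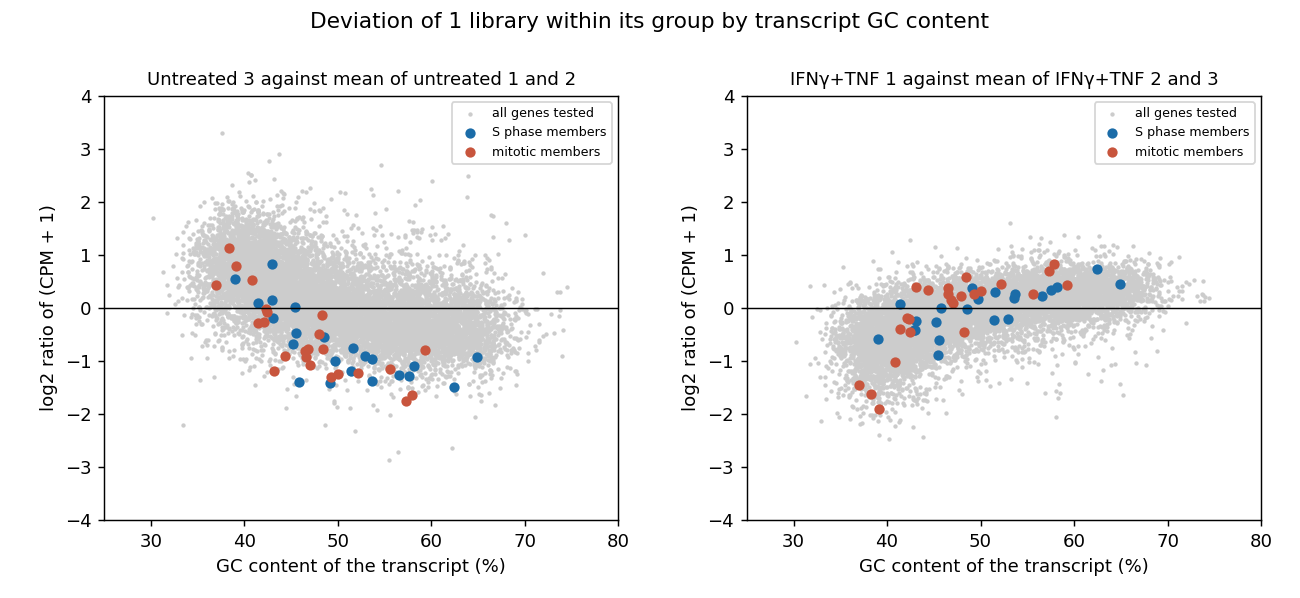
GC content of 1 transcript per gene (x axis, %) against the log2 ratio of CPM + 1 in untreated replicate 3 to the mean of untreated replicates 1 and 2 (left) and in treated replicate 1 to the mean of treated replicates 2 and 3 (right), for all genes tested (grey), S phase members (blue) and mitotic members (red). Points fall with GC content on the left and climb with it on the right, and most coloured points on the left lie below 0.

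The other genes of the 2 pathways gave few calls as well. Of 62 other replication genes 56 were tested, and 1 was called, higher, where 5.58% of all genes were called higher (median log2 fold change 0.12). It was E2F7, a repressor of the E2F family, at 5.50, 6.21 and 3.87 CPM in untreated replicates 1, 2 and 3 and 9.82, 11.3 and 18.0 CPM in treated replicates 1, 2 and 3. All treated libraries were above all untreated ones (fitted log2 change 1.32 with SE 0.35, adjusted p 0.0498 by edgeR), but the call was lost in 9 of 15 alternatives, without any 1 of the 6 libraries and in limma voom (0.0603) among them. Of 75 other mitosis genes 62 were tested, and 1 was called, higher (median 0.19). It was MELK, a kinase gene expressed in dividing cells, at 25.1, 23.8 and 15.9 CPM in untreated replicates 1, 2 and 3 and 34.4, 56.2 and 50.8 CPM in treated replicates 1, 2 and 3. Treated libraries were above all untreated ones (fitted log2 change 1.13 with SE 0.27, adjusted p 0.0326 by edgeR), and the call was lost in 5 of 15 alternatives, with adjusted p up to 0.129. MELK was called without untreated replicate 3 (log2 fold change 0.94). Untreated replicate 3 was the lowest of its group in 36 of the 56 and 34 of the 62 genes, beside 41.1% of all genes tested.

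A further list held CDK inhibitors and D cyclins that act upstream of S phase. It also held the kinase genes CDK2, CDK4 and CDK6 and the RB family genes RB1, RBL1 and RBL2. This list gave 3 calls among 13 tested, 2 higher and 1 lower, beside 8.14% of all genes called (5.58% higher and 2.55% lower). CCND3, a D cyclin gene, was at 168, 175 and 102 CPM untreated and 334, 267 and 378 CPM treated (fitted log2 change 1.14 with SE 0.24, adjusted p 0.0208 by edgeR). CDKN2D, which encodes an inhibitor of CDK4 and CDK6, was at 13.9, 12.4 and 5.69 CPM untreated and 28.0, 21.4 and 29.7 CPM treated (fitted log2 change 1.31 with SE 0.34, adjusted p 0.0468 by edgeR). Both rose, and the call was lost without treated replicate 1 or 3 or untreated replicate 2 in both genes, with adjusted p from 0.0524 to 0.174, and for CDKN2D also without treated replicate 2 (0.0803) and with library totals (0.0532). CDKN1C, which encodes the CDK inhibitor p57, fell from 20.9, 17.8 and 85.4 CPM to 4.91, 3.16 and 5.70 CPM in treated replicates (fitted log2 change -3.19 with SE 0.64, adjusted p 0.0154 by edgeR). Its highest library was untreated replicate 3, the one with low replication and mitosis genes, and without it the log2 fold change was -2.10 (adjusted p 0.00122 by edgeR). The call was lost in limma voom (0.057) and without any 1 treated library (0.0553 to 0.0855). CDKN1A, which encodes p21, had 183, 188 and 169.9 CPM untreated and 144, 129.8 and 166 CPM treated (fitted log2 change -0.30 with SE 0.17, adjusted p 0.402 by edgeR).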

How the data were processed

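Direct RNA nanopore reads of poly(A) RNA were counted in 6 RCC4 libraries, 3 untreated and 3 treated. The authors deposited raw read counts per gene and library, made with featureCounts 2.0.1 per the file headers, in long-read mode, on exons of Ensembl 105 (GRCh38) and on the sense strand. The submitters' processing notes name featureCounts 2.0.0, minimap2 2.24 and SAMtools 1.16. Alignment names in the headers of the files for untreated cells carry the word dmso, while the labels describe these cells as untreated.

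Counts were tested with edgeR 4.0.16 (R 4.3.3), by quasi-likelihood with TMM normalisation and edgeR's filter on low counts, over the 6 libraries with group as the only term. P-values were adjusted over the 10067 genes tested by the Benjamini-Hochberg method, with 0.05 as the threshold. The scripts were tested on counts simulated with the mean levels and library sizes of these data. There edgeR called 34 of 100 genes given a log2 fold change of 1 in either direction. It called 88 of 100 genes given a change of 2. The members and lists were chosen with earlier results of these data known. Values in every library were required for members past the threshold, and in each list for the 5 tested members with the largest absolute log2 fold change, the 3 with the highest mean CPM and any with at most 3 counts in every library. Others shown in this way were chosen after their values were seen. Of the 3 other lists, genes past the threshold are named.

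Alternatives were other scalings and filters, a replicate block, DESeq2 1.42.0, limma 3.58.1 (voom) and leaving out each library. After seeing the data, 2 more fits were added, one with 1 surrogate variable from sva 3.50.0 and one with per-library offsets for GC content and transcript length, taken from the longest protein-coding transcript in GENCODE 29. Promoter windows came from RefSeq.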

Additional observations from a re-analysis of the deposited data

How the results depend on the processing

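Over 15 alternatives, 613 of 690 values of the 46 tested members kept their direction and their side of the threshold, 5 passed the threshold newly and 72 changed sign, in 27 members. CDC25B was called in every alternative. Leaving out untreated replicate 3 changed the sign of 13 members and left 22 positive and 24 negative. The number of S phase members called was 0 except with 1 surrogate variable (1), and that of mitotic members was 1 except with the replicate block (2), GC and length offsets (2) and 1 surrogate variable (3). Over all genes 819 were called, with 1328 for every gene of at least 1 count, 1513 with the replicate block, 1845 with 1 surrogate variable, and 455 to 1178 without 1 library. Other replication genes gave 0 calls with library totals, limma voom or GC and length offsets, 3 with the replicate block, 8 with 1 surrogate variable and 0 to 2 without 1 library. Other mitosis genes gave 0 with library totals or GC and length offsets, 5 with the replicate block, 7 with 1 surrogate variable and 0 to 1 without 1 library. Median log2 fold changes ran from -0.00832 to 0.33 for S phase and from -0.00994 to 0.28 for mitotic members without 1 library, and the log2 ratio of summed CPM from -0.0288 to 0.43 and from -0.13 to 0.36. The cause was not tested. Depth limits KIF11 and CENPF most, with as few as 5 and 4 counts in a library.

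The labels do not say that replicate numbers mark a shared day or passage. Deviations from group means correlated at 0.663, -0.0195 and 0.380 for same-numbered pairs 1, 2 and 3. Untreated replicate 1 correlated best with treated replicate 1, and untreated replicate 3 with treated replicate 2 (0.416). Whether same-numbered samples shared a day or passage cannot be told from these values. They were not treated as pairs in the main fit. With the replicate block CDC25B and MKI67 were called.

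With the replicate block, the reversed log2 fold changes were CDC20 0.0107, GINS2 0.022, E2F1 0.0472 and CDC45 0.0608. In limma voom, the reversed log2 fold changes were CDC20 0.0234, POLA1 0.0076, GINS2 0.0392, E2F1 0.0759 and CDC45 0.0981. With 1 surrogate variable, the reversed log2 fold changes were CDC20 0.012, POLA1 0.0056, GINS2 0.0035, E2F1 0.0286 and CDC45 0.0504. With library totals, the reversed log2 fold changes were PTTG1 -0.0196, CDC25C -0.0033, RFC3 -0.0339, KIF23 -0.0204 and TYMS -0.0686. With every gene of at least 1 count, the reversed log2 fold change was CDC45 0.0119. With genes of at least 1 CPM in 3 libraries, the reversed log2 fold change was CDC45 0.0011. In DESeq2, the reversed log2 fold change was CDC45 0.0081. With GC and length offsets, the reversed log2 fold change was CDC45 0.0266.

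Without 1 library at a time, log2 fold changes ran for AURKA from -0.001 to 0.52, AURKB from -0.074 to 0.47, CCNB1 from -0.46 to 0.12, CCNB2 from -0.40 to 0.11 and CDC20 from -0.46 to 0.23. They ran for CDC25C from -0.16 to 0.38, CDC45 from -0.33 to 0.20, CDK1 from -0.40 to 0.81, E2F1 from -0.40 to 0.22 and FEN1 from -0.15 to 0.45. Ranges were wide for GINS2 from -0.43 to 0.18, KIF11 from -0.61 to 0.94, KIF20A from -0.45 to 0.0606, KIF23 from -0.14 to 0.24 and MCM3 from -0.0677 to 0.32. Further ranges were for MCM4 from -0.21 to 0.21, MCM5 from -0.20 to 0.34, MCM6 from -0.11 to 0.085, MCM7 from -0.0419 to 0.53 and PLK1 from -0.70 to 0.096. Ranges also crossed 0 for POLA1 from -0.33 to 0.29, PTTG1 from -0.27 to 0.33, RFC3 from -0.20 to 0.30, TOP2A from -0.82 to 0.32 and TPX2 from -0.0189 to 0.45. The remaining ranges were for TYMS from -0.26 to 0.32 and UBE2C from -0.0926 to 0.50.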
